A study of Mus musculus with 8 samples.

Results

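The genes described here mark hepatic stellate cells, resting and activated, in liver of mice that lack Pemt or carry it. They are Acta2, Tagln and Myl9 (contractile apparatus), Lrat, Reln, Des and Ecm1 (genes used to recognise the resting cell) and Pdgfra and Pdgfrb (growth factor receptors). All probe sets that the array annotation pairs with 1 of these 9 genes alone were taken, which gave 17 of the 45037 probe sets on the array. Of these 17, 11 were bright enough to be tested, at least 1 for each of the 9 genes, and 6 were too dim.

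Gene expression was measured on Affymetrix arrays in liver of Pemt-/- mice and of wild-type Pemt+/+ mice. Pemt (phosphatidylethanolamine N-methyltransferase) makes phosphatidylcholine in liver by methylation of phosphatidylethanolamine, and the labels name no tissue restriction of the knockout. According to the methods the mice were male, and both genotypes were fed a high fat-high sucrose (HFHS) chow for 1, 2, 3 or 4 weeks, and no array of another diet was analysed here. There was 1 array per genotype and week, 8 in all, so a comparison within a week has no replicate and the genotypes are compared over 4 arrays each. The methods name 4 mice per genotype for the livers of weeks 1 to 4, in a passage on both DNA methylation and arrays, and do not say how the mice were divided over weeks or how many stand behind an array. The p-values of the genotype measure only how the difference between the arrays of a week varied over the weeks. Those of the change per week measure only the spread of arrays, each of a different week, around a line in each genotype.

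Hepatic stellate cells lie between hepatocytes and the sinusoids. At rest they store retinol as retinyl esters in lipid droplets. In liver injury they turn into contractile, matrix-producing myofibroblasts, a change known as activation, and PDGF drives their proliferation and migration. Smooth muscle actin is the usual marker of the activated cell, and the contractile genes are known targets of serum response factor (SRF), which binds a short element called the CArG box.

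The promoters of Acta2 and Myl9 are shown because both are contractile genes and each held 2 CArG boxes. Each stretch is the 250 bases before the start of transcription in RefSeq (GRCm38.p6), 5′ to 3′ on the strand of the gene, with the CArG boxes in capitals. The Acta2 stretch lies at chr19:34255374-34255623 on the minus strand, and the Myl9 stretch at chr2:156775214-156775463 on the plus strand.
Acta2: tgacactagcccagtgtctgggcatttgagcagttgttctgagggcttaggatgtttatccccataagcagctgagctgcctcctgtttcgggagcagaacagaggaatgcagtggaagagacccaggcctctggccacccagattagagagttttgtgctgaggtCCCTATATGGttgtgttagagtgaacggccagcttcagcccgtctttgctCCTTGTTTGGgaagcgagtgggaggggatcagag
Myl9: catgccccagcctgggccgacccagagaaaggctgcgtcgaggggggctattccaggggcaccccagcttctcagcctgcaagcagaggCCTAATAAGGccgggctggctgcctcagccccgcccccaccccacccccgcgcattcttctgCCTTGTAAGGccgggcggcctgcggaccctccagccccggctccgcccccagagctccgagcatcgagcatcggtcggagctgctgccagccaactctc
CArG boxes were searched by their consensus, which reads the same on both strands, with up to 1 C or G allowed among the inner A and T bases. The boxes of Acta2 began 84 and 34 bases before the start, each with 1 such base. Those of Myl9 began 161 bases before the start, with none, and 99 bases before it, with 1. A RefSeq promoter of 300 bases was at hand for 7 of the 9 genes. Lrat held 1 match, 223 bases before its start, and Des, Reln, Ecm1 and Pdgfra held none in this window. Among all 32851 promoters of this length, 9.98% held 1 match or more and 0.822% held 2 or more. A match is a description of the letters, not a binding site.

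Pemt itself was checked first. Its intensity averaged 224 ± 26.4 in Pemt-/- liver and 5543 ± 437 in Pemt+/+ liver (SD, n = 4 each), 23.2-fold lower in Pemt-/- liver (adjusted p = 4.99586e-07, limma), so the arrays followed their labels. Log2 intensities correlated at 0.967 to 0.976 among the Pemt-/- arrays, at 0.962 to 0.966 among the Pemt+/+ arrays and at 0.942 to 0.963 between the genotypes, and the median intensity of an array lay between 74.0 and 81.5. All 12 stellate cell markers checked (Lrat, Reln, Des, Pdgfrb, Hgf, Rgs5, Ngfr, Gfap, Cygb, Lhx2, Hand2 and Colec11) were above the filter on dim probe sets. Among the 12, 7 were called higher in Pemt-/- liver and none was called lower. Of all 12949 genes tested, 12.6% were higher and 7.51% were lower. Hgf, Ngfr, Gfap, Cygb and Lhx2 did not pass the test, and every Pemt-/- array of Gfap lay below every Pemt+/+ array. Lrat, Reln, Des and Pdgfrb are among the 9 genes, and the other markers are counted again below. The count is therefore not a separate check.

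Of the 11 stellate cell probe sets tested, 9 were higher in Pemt-/- liver and none was lower at an adjusted p under 0.05. Of all 27022 probe sets tested, 10.3% were higher and 5.86% were lower. The 9 belonged to 7 genes (Acta2, Tagln, Lrat, Reln, Des, Pdgfra and Pdgfrb), so genes of the resting and of the activated cell were higher in the same livers. Myl9 and Ecm1 were not called. The median difference of the 11 was 1.05 on the log2 scale, beside 0.02 over all probe sets tested. Every Pemt-/- array lay above every Pemt+/+ array for 6 of the 11, where 12.8% of all probe sets tested did so, and for none did every one lie below, where 8.96% of all did. In RNA of whole liver, more or fewer cells of a type and more or less RNA per cell cannot be told apart. The balance of calls over all probe sets depended on the scaling, 2788 higher and 1584 lower as deposited, and 1977 higher and 3280 lower when each array was centred on the median of the probe sets tested, a choice made after seeing the data. The same count of 9 member probe sets was called under that centring.

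**Figure D1:**
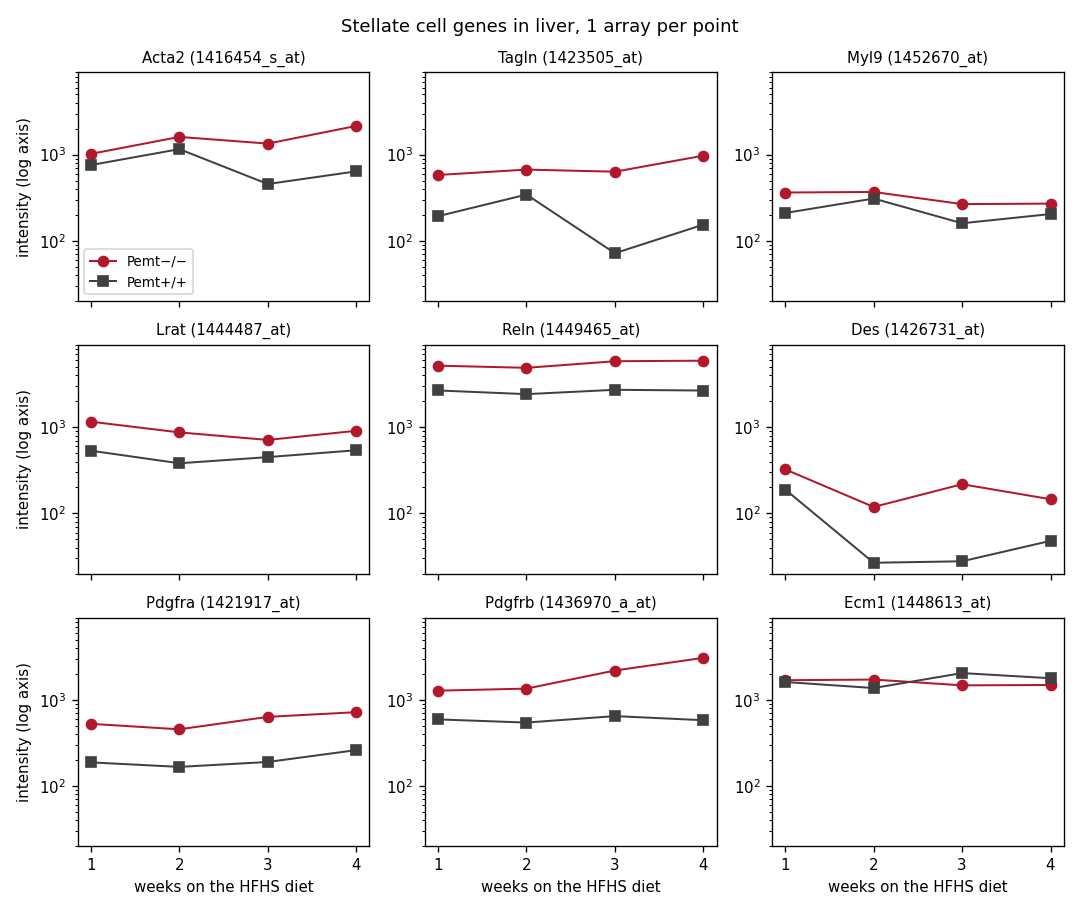
Intensity of the brightest probe set of each of the 9 genes (log axis, the same span in every panel) against weeks on the HFHS diet, 1 array per point, Pemt-/- in red circles and Pemt+/+ in grey squares. Tagln, Lrat, Reln, Pdgfra and the brighter Pdgfrb probe set show no overlap between the genotypes, while Ecm1 crosses over between weeks 2 and 3; levels of different panels are not comparable.

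The contractile genes differed in size of change. Acta2 encodes α-smooth muscle actin, the filament protein by which activated stellate cells are usually recognised. Its probe set 1416454_s_at had intensities of 1020.3, 1605, 1343 and 2151 in Pemt-/- liver at weeks 1, 2, 3 and 4, against 756, 1158, 456 and 639 in Pemt+/+ liver. Pemt-/- liver was higher in all 4 weeks, but the groups overlapped because the Pemt-/- array of week 1 lay below the Pemt+/+ array of week 2. Acta2 was 2.05-fold higher (95% interval 1.44 to 2.92, adjusted p = 0.0164, limma), and the weekly ratio of Pemt-/- to Pemt+/+ liver was 1.35, 1.39, 2.95 and 3.37. It did not pass when week 3 was left out (adjusted p = 0.0786), nor when week 4 was (adjusted p = 0.0629).

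A probe set of this suffix (_s_at) holds probes that match more than 1 transcript, which can include those of other actins. The probe sets of the other muscle actins did not stand apart by genotype in their ranges. Actg2, the γ actin of smooth muscle, ranged over 36.5 to 130.0 in Pemt-/- liver and 33.0 to 152 in Pemt+/+ liver. Acta1, of skeletal muscle, ranged over 15.2 to 120.4 in Pemt-/- liver and 15.1 to 139.9 in Pemt+/+ liver. Actc1, of heart, ranged over 88.4 to 123 in Pemt-/- liver and 44.6 to 129 in Pemt+/+ liver. The cytoplasmic actin gene Actg1 ranged over 10555 to 14397 in Pemt-/- liver and 6444 to 9180 in Pemt+/+ liver, with no overlap, and the part of cross-hybridisation in the Acta2 value was not tested.

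Tagln encodes transgelin, an actin-binding protein of smooth muscle and myofibroblasts. Its probe set 1423505_at had 581, 670.1, 634 and 972 in Pemt-/- liver, against 193, 344, 71.7 and 154 in Pemt+/+ liver. No Pemt-/- array fell within the Pemt+/+ range. The difference was 1.97 ± 0.29 on the log2 scale (SE), which is 3.91-fold and the largest among the 11 (adjusted p = 0.00357). The ratio was 3.01, 1.95, 8.84 and 6.31 in weeks 1 to 4, smallest at week 2, when the Pemt+/+ array had its highest value. In this respect Tagln followed Acta2 and Myl9, whose Pemt+/+ arrays were also highest at week 2. Tagln passed the test in all 15 alternative settings run.

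Myl9 encodes the regulatory light chain of smooth muscle myosin. Its probe set 1452670_at had 363, 369, 266 and 270.0 in Pemt-/- liver, against 210.1, 309, 159.7 and 204 in Pemt+/+ liver. Pemt-/- liver was higher in 4 of 4 weeks, with overlap between the groups. The difference of 0.51 ± 0.15 (SE), or 1.43-fold (95% interval 1.12 to 1.81), missed the threshold at an adjusted p of 0.0529, and it passed without week 2 (adjusted p = 0.0456).

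Among the resting cell genes that were higher, Lrat and Reln varied less between the arrays of a genotype than Des. Lrat encodes lecithin retinol acyltransferase, which makes the retinyl esters that stellate cells store. Its brighter probe set 1444487_at had 1161, 871, 713 and 909 in Pemt-/- liver, against 534, 382, 450.0 and 541 in Pemt+/+ liver. Its other probe set, 1421345_at, had 328, 297, 263 and 366 in Pemt-/- liver, against 167, 150.3, 175 and 159.7 in Pemt+/+ liver. Neither probe set showed overlap, and they gave nearly the same size of change, 1.88-fold (adjusted p = 0.00325) and 1.83-fold (adjusted p = 0.00782). The brighter probe set was higher by a ratio of 2.17 and 2.28 in weeks 1 and 2 and by 1.58 and 1.68 in weeks 3 and 4. The ratio of 1421345_at was 1.96, 1.98, 1.502 and 2.29, smallest at week 3 and largest at week 4.

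Reln encodes reelin, a secreted glycoprotein best known from neuronal migration and made in liver by stellate cells. Probe set 1449465_at had 5185, 4895, 5839 and 5925 in Pemt-/- liver, against 2673, 2423, 2721 and 2668 in Pemt+/+ liver. The groups did not overlap, and within a genotype the highest array exceeded the lowest by a ratio of only 1.21 in Pemt-/- liver and 1.12 in Pemt+/+ liver. Reln was 2.07-fold higher (95% interval 1.80 to 2.38, adjusted p = 0.000534), the smallest p of the 11, with a weekly ratio of 1.94, 2.02, 2.15 and 2.22. A second Reln probe set, 1458020_at, was too dim to be tested, with 13.7 to 69.4 in Pemt-/- liver and 41.4 to 100.4 in Pemt+/+ liver, and lay lower in Pemt-/- liver in 3 of 4 weeks (ratios of 0.244, 1.12, 0.332 and 0.419). In a fit with no filter its difference was -0.80 (adjusted p = 0.215).

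Des encodes desmin, the muscle-type intermediate filament that rodent stellate cells carry also at rest. Probe set 1426731_at had 324, 119, 218 and 146 in Pemt-/- liver, against 189, 26.7, 27.8 and 48.0 in Pemt+/+ liver. The groups overlapped through the Pemt+/+ array of week 1, which lay above the Pemt-/- arrays of weeks 2 and 4. Des was 2.90-fold higher (95% interval 1.87 to 4.50, adjusted p = 0.00804), and the ratio was 1.71, 4.44, 7.84 and 3.04 in weeks 1 to 4. The Pemt+/+ arrays of weeks 2 and 3 lay below 45.5, the intensity that the filter asked of a mean, and that of week 4 just above it, so the size of these ratios is uncertain.

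Ecm1 encodes extracellular matrix protein 1, a secreted protein that holds latent TGF-β in its inactive state in liver. Its probe set was the only one of the 11 with a fitted difference below 0. Probe set 1448613_at had 1691, 1721, 1475 and 1489 in Pemt-/- liver, against 1612, 1373, 2047 and 1783 in Pemt+/+ liver. The groups overlapped, Pemt-/- liver being above Pemt+/+ liver in weeks 1 and 2 and below it in weeks 3 and 4. The difference was -0.08 ± 0.14 (SE) with a 95% interval of -0.40 to 0.23 and an adjusted p of 0.728, and it turned to 0.04 without week 3 (adjusted p = 0.895).

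Both PDGF receptors were higher. Pdgfra encodes the receptor α chain, which binds PDGF-A, -B and -C dimers and is found on fibroblasts of many tissues. Its probe set 1421917_at had 527, 456, 635 and 720.2 in Pemt-/- liver, against 188, 167, 190.3 and 261 in Pemt+/+ liver. The groups did not overlap, and the ratio stayed between 2.73 and 3.34, at 2.80, 2.73, 3.34 and 2.76. Pdgfra was 2.75-fold higher (95% interval 2.24 to 3.39, adjusted p = 0.000683). A dim second probe set, 1421916_at, had 34.1, 19.8, 56.8 and 33.7 in Pemt-/- liver, against 8.76, 7.84, 6.75 and 10.7 in Pemt+/+ liver, without overlap. It lay below the filter, and in a fit with no filter its difference of 1.04 had an adjusted p of 0.0632.

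Pdgfrb encodes the receptor β chain, through which PDGF-B acts as a mitogen on activated stellate cells. Probe set 1436970_a_at had 1279, 1352, 2193 and 3075 in Pemt-/- liver, against 594, 545, 648 and 581 in Pemt+/+ liver. The Pemt-/- arrays were higher at each later week, the Pemt+/+ arrays stayed within a ratio of 1.19, and there was no overlap. This probe set was 3.07-fold higher (adjusted p = 0.00163), with ratios of 2.15, 2.48, 3.38 and 5.29. The dimmer probe set 1417148_at had 216, 151, 245 and 314 in Pemt-/- liver, against 174, 38.3, 47.8 and 22.5 in Pemt+/+ liver, and overlapped through the Pemt+/+ array of week 1. It was 3.39-fold higher (adjusted p = 0.0169), but did not pass when week 3 was left out (adjusted p = 0.0702), nor when week 4 was (adjusted p = 0.0515). Its Pemt+/+ arrays of weeks 2 and 4 lay below 45.5 as well, which leaves the size of its fold uncertain. Only the brighter Pdgfrb probe set and Pdgfra 1421917_at among the 11 had a ratio of 2 or more in all 4 weeks, as 1.64% of all probe sets tested had.

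**Figure D2:**
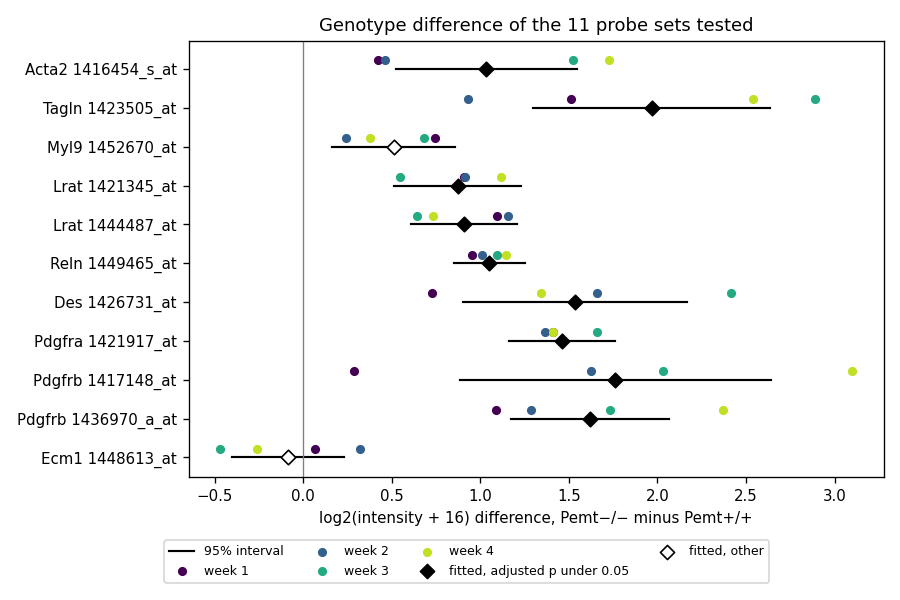
Fitted difference between Pemt-/- and Pemt+/+ liver (diamonds, Pemt-/- minus Pemt+/+, log2 of intensity + 16) with its 95% interval for the 11 probe sets tested, and above each line the 4 weekly differences as coloured points. Filled diamonds passed an adjusted p under 0.05; Myl9 (0.51) and Ecm1 (-0.08) are open, and Reln has the narrowest interval.

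The remaining dim probe sets of the members carried no separation. Acta2 1444105_at, Acta2 1456658_at, Des 1426732_at and Pdgfra 1438946_at overlapped between the genotypes, and together with Reln 1458020_at they make up the 5 dim probe sets with overlap. With no filter their adjusted p-values were 0.717, 0.563, 0.826 and 0.941. When all probe sets of a gene were averaged on the log2 scale, dim ones included, the differences of Acta2 (0.27, adjusted p = 0.422) and Reln (0.13, adjusted p = 0.587) were no longer called. Des then lay below the filter and was not tested, and the difference of Pdgfra was 0.81 (adjusted p = 0.0393) in place of 1.46. Myl9, which has 1 probe set, passed in that fit (adjusted p = 0.0358).

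Over the weeks, the 11 probe sets had a median difference of 0.91, 1.01, 1.53 and 1.34 on the log2 scale at weeks 1, 2, 3 and 4, beside 0.05, -0.01, 0.02 and 0.04 over all probe sets tested. A ratio of 2 or more was seen for 4, 6, 7 and 8 of the 11, against 7.56%, 6.5%, 9.79% and 10.2% of all probe sets tested. None of the 11 had a ratio of 0.5 or less in any week, where 4.09%, 5.66%, 5.61% and 5.85% of all probe sets tested did. The 4 of week 1 were Tagln, the brighter probe sets of Lrat and Pdgfrb, and Pdgfra, while for Acta2 1416454_s_at the ratio was above 2 in weeks 3 and 4 alone. With the 6 dim probe sets added, 7, 8, 9 and 9 of the 17 had a ratio of 2 or more, against 13.3%, 13.4%, 14.4% and 15.9% of all 45037 probe sets. A ratio of 0.5 or less was seen for 2, 2, 1 and 1 of the 17, all of them dim probe sets of Acta2, Reln and Pdgfra, against 14.2%, 14.9%, 15.9% and 14.6% of all 45037.

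Whether the change per week differed between the genotypes was tested in limma with the week as a number. No probe set passed the adjusted threshold, among the members or among all 27022 (0%), and 6.73% of all had an unadjusted p under 0.05. Among the 11 member probe sets, 3 had an unadjusted p under 0.05, namely both of Pdgfrb and that of Acta2. All had a change per week that was more positive in Pemt-/- liver. The brighter Pdgfrb probe set, 1436970_a_at, changed by 0.45 ± 0.07 log2 units per week in Pemt-/- liver and by 0.02 ± 0.07 in Pemt+/+ liver (SE), a difference of 0.43 ± 0.10 (adjusted p = 0.536). Its change in Pemt-/- liver alone had an adjusted p of 0.0615. The other Pdgfrb probe set, 1417148_at, changed by 0.22 ± 0.18 per week in Pemt-/- liver and by -0.67 ± 0.18 in Pemt+/+ liver, a difference of 0.88 ± 0.25 (adjusted p = 0.604). Its Pemt+/+ change rests on 174 at week 1 against 38.3, 47.8 and 22.5 later, with 2 of these arrays below 45.5. The change of Acta2 per week was 0.29 ± 0.14 in Pemt-/- liver and -0.20 ± 0.14 in Pemt+/+ liver, a difference of 0.50 ± 0.20 (adjusted p = 0.709).

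**Figure D3:**
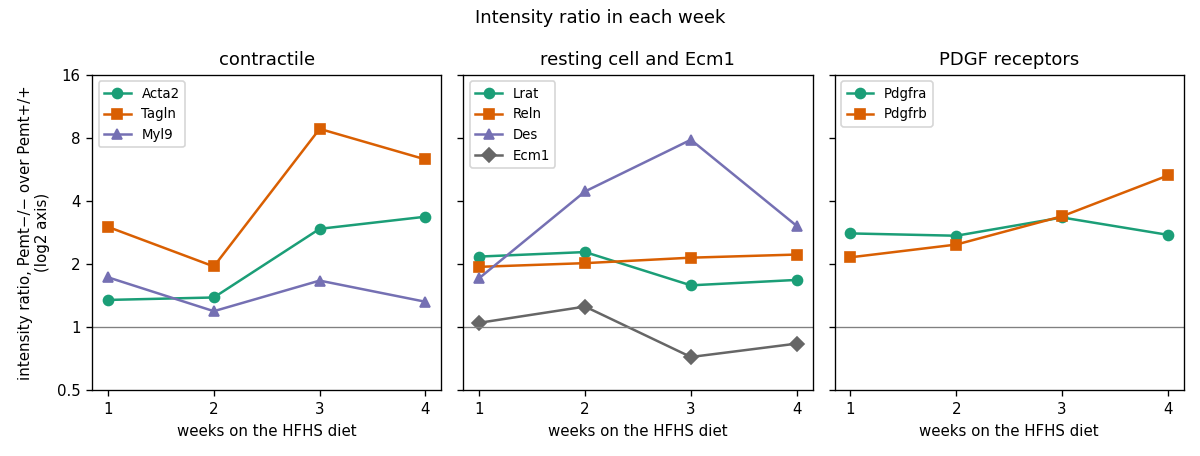
Ratio of the intensity in Pemt-/- liver to that in Pemt+/+ liver (log2 axis) by week of the diet, for the brightest probe set of each gene, 1 array per genotype and week, with a line at a ratio of 1. Acta2 stands at 1.35 and 1.39 in weeks 1 and 2 and at 2.95 and 3.37 in weeks 3 and 4, Reln stays between 1.94 and 2.22, and Ecm1 lies below 1 in weeks 3 and 4.

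The genes around the members were counted at the brightest probe set of each gene, where 12.6% of 12949 genes were higher, 7.51% were lower and the median was 0.02. The lists, like the members, were chosen with earlier results of these data known. Their counts beside the share over all genes are therefore a description, not a separate test. Of 19 further contractile and SRF-linked genes tested, 7 were higher and none was lower, with a median of 0.60. Csrp1, a LIM protein of smooth muscle, rose 3.37-fold (adjusted p = 0.0018). Tpm1, a tropomyosin, rose 2.41-fold (adjusted p = 0.000773). Cnn2, a calponin, rose 2.12-fold (adjusted p = 0.00404). Mrtfb, a coactivator of SRF, was 1.54-fold higher (adjusted p = 0.0128), though not when week 3 was left out (adjusted p = 0.0764) or week 4 (adjusted p = 0.0613). Of the 3 Mrtfb probe sets tested, 1 was called. Leaving out week 3, or week 4, brought the count to 3 of 19. Cnn1, Myh11, Lmod1, Synpo2 and Myocd, which mark mature smooth muscle, were too dim to be tested. Srf itself ranged over 465 to 557 in Pemt-/- liver and 410.5 to 612 in Pemt+/+ liver (adjusted p = 0.650).

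Of 22 further genes of resting stellate cells, 12 were higher and none was lower, with a median of 0.70. Rgs5, a regulator of G protein signalling shared with pericytes, rose 2.07-fold (adjusted p = 0.00237), with 2 of its 4 probe sets tested called. Hand2, a transcription factor of the stellate lineage, rose 1.93-fold (adjusted p = 0.00342). Abcc9, a channel subunit shared with pericytes, rose 1.74-fold (adjusted p = 0.00251), and Colec11, a secreted collectin, rose 1.52-fold (adjusted p = 0.00436). These 4 passed the test also when any 1 week was left out, while the count was 7 without week 1, 10 without week 2, 8 without week 3 and 7 without week 4. Gfap, an intermediate filament of resting stellate cells, had 42.1 to 64.5 in Pemt-/- liver against 81.8 to 104.9 in Pemt+/+ liver. Of its Pemt-/- arrays, 2 lay below 45.5. The groups did not overlap, and Gfap, 1.67-fold lower, missed the threshold (adjusted p = 0.0611) but passed when arrays were centred on the median of the probe sets tested (adjusted p = 0.0301).

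Of 20 genes linked to activated stellate cells, most of them matrix genes, 18 were higher and 1 was lower, with a median of 1.60. Vim, S100a6 and Lgals1, which are among the 18, are not matrix genes in the strict sense. Timp1, an inhibitor of matrix metalloproteinases, rose 4.41-fold (adjusted p = 0.000683), with 2 of 4 Pemt+/+ arrays below 45.5. Sparc, a collagen-binding matrix protein, rose 3.03-fold (adjusted p = 0.000723), and Postn, which encodes periostin, rose 2.75-fold (adjusted p = 0.000583). Spon2, a secreted matrix protein, rose 2.16-fold (adjusted p = 0.000898). Without any 1 week, 17 or 18 of the 20 were higher. Lox, a lysyl oxidase that crosslinks collagen, is among the 18 with a Pemt+/+ mean below the level of the filter, and so was tested only through its level in Pemt-/- liver. Fn1, which encodes fibronectin and is also made by hepatocytes, was the lower one at 1.21-fold (adjusted p = 0.0473), and its difference of -0.28 shrank to -0.05 under quantile normalization (adjusted p = 0.652). It did not pass when week 1, 3 or 4 was left out (adjusted p = 0.126, 0.201 and 0.203). Of the probe sets tested, 2 of 3 were called higher for Sparc and 1 of 2 each for Spon2 and Lox. For Fn1, 1 of 2 was called lower.

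The ligands of the PDGF receptors were tested together with genes of their processing and signalling. Of these 21 genes, 5 were higher and none was lower, with a median of 0.23. Plat, a protease that activates PDGF-C, rose 3.56-fold (adjusted p = 0.00321). Pdgfa rose 1.96-fold (adjusted p = 0.00824), with 541 to 1339 in Pemt-/- liver and 380 to 571 in Pemt+/+ liver. Pdgfc was 1.51-fold higher (adjusted p = 0.0148) and Ptpn11, a phosphatase in the receptor's signalling, 1.41-fold higher (adjusted p = 0.0148). Pdgfb was 2.14-fold higher (adjusted p = 0.0356), with 1 Pemt+/+ array below 45.5. Pdgfb, Pdgfc and Ptpn11 did not pass when week 3 was left out (adjusted p = 0.134, 0.0850 and 0.0984), nor when week 4 was (adjusted p = 0.122, 0.0803 and 0.0529). Pdgfb and Ptpn11 did not pass without week 1 either (adjusted p = 0.0797 and 0.0508). The count of this list was 3, 7, 2 and 2 when week 1, 2, 3 or 4 was left out. Of the probe sets tested, 1 of 2 was called for Plat, 1 of 2 for Pdgfb and 1 of 3 for Ptpn11. For Pdgfa and Pdgfc, 2 of 2 were called.

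Vldlr, a reelin receptor, and Dab1, the adaptor inside the cell, were tested beside Reln and neither passed. Vldlr had 124 to 463 in Pemt-/- liver and 103 to 175 in Pemt+/+ liver (adjusted p = 0.0639). The other reelin receptor, Lrp8, was too dim.

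Of 12 genes tested that handle retinol beside Lrat, none was higher and 4 were lower, with a median of -0.31. Dgat2, an acyltransferase of triglyceride synthesis, fell by 0.50 on the log2 scale (adjusted p = 0.00743), with 1 of its 2 probe sets tested called. Rbp4, the retinol carrier of plasma, fell by 0.36 (adjusted p = 0.0249), and by 0.02 under quantile normalization (adjusted p = 0.816). Pnpla3, a lipase that acts on retinyl esters, fell by 0.84 (adjusted p = 0.0322), and Rdh11, a retinal reductase, fell by 0.94 (adjusted p = 0.0350). None of the 4 passed without week 4, and of the 4 Dgat2 alone passed without week 3 (adjusted p = 0.0469). Rbp4 was also lost without week 1 (adjusted p = 0.0820) and Pnpla3 without week 2 (adjusted p = 0.0715). Dgat2, Rbp4 and Pnpla3 are expressed by hepatocytes.

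Genes that store and release latent TGF-β, on which Ecm1 acts, were higher in 5 of 13 cases and lower in none, with a median of 0.61. Ltbp1, a latent TGF-β binding protein, rose 2.75-fold (adjusted p = 0.00835). Ltbp2, a matrix protein of the same family, was 2.64-fold higher (adjusted p = 0.0182). Ltbp1 and Ltbp2 each had 1 Pemt+/+ array below 45.5. Tgfb3, a TGF-β ligand, was also called (adjusted p = 0.0197). Tgfb3 had 69.6 to 103.7 in Pemt-/- liver and 7.64 to 50.8 in Pemt+/+ liver, where the mean lay below the level of the filter, so it was tested only through its level in Pemt-/- liver and no fold is given. Itgav, an integrin chain that activates latent TGF-β, was 1.45-fold higher (adjusted p = 0.0203). When week 3 or week 4 was left out, Ltbp1 was the 1 gene of the 13 still called, and Tgfb3 was also lost without week 1 (adjusted p = 0.0734).

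**Figure D4:**
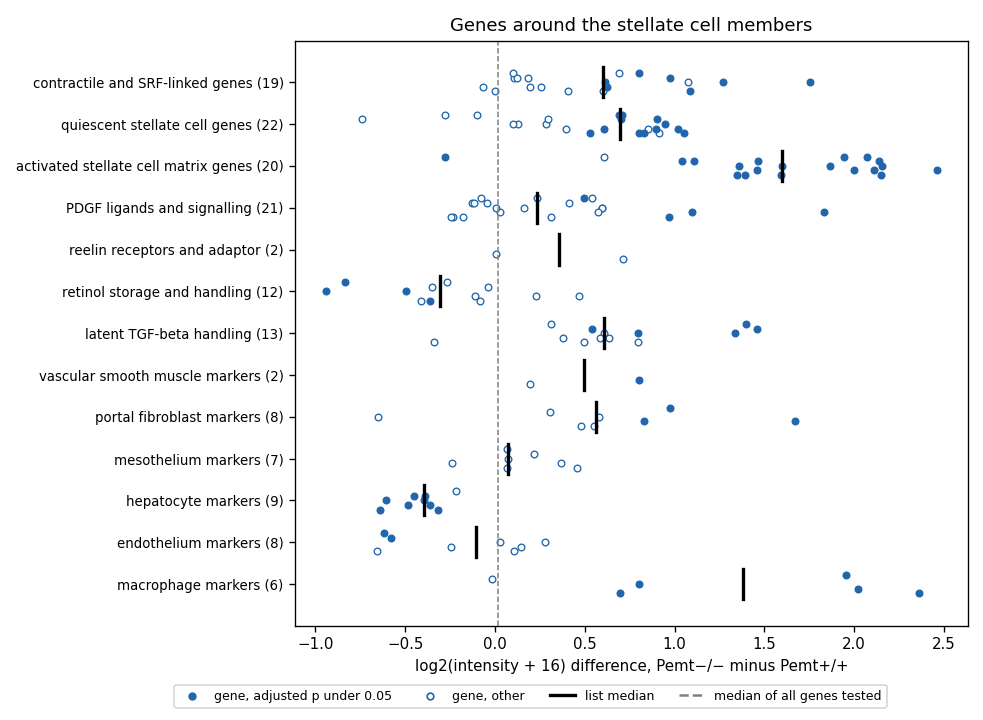
Difference between Pemt-/- and Pemt+/+ liver (log2 of intensity + 16) for each gene of 13 lists, 1 point per gene at its brightest probe set, with the number of genes tested in brackets, filled where the adjusted p was under 0.05. Black bars give list medians (1.60 for the genes of activated cells, most of them matrix genes, 0.70 for the genes of resting cells, -0.31 for retinol handling) and the dashed line the median of all genes tested, 0.02.

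Markers of other cell types moved with the genotype too. Macrophage markers were higher in 5 of 6 cases (4 when week 3 or week 4 was left out), and their summed intensity was 17626 to 26734 in Pemt-/- liver and 8126 to 11787 in Pemt+/+ liver. Hepatocyte markers were lower in 8 of 9 cases, with a summed intensity of 283076 to 366024 in Pemt-/- liver and 398503 to 429585 in Pemt+/+ liver, but in 1 of 9 under quantile normalization, where their median was -0.04 in place of -0.40. Leaving out week 1, 2, 3 or 4 left 3, 8, 1 and 1 of the 9 hepatocyte markers lower. Portal fibroblast markers, of cells that also make collagen and can express Acta2, were higher in 3 of 8 tested (Dpt, Entpd2 and Eln, of which Dpt alone remained without week 3 and Eln was lost without week 4) and lower in none. Gas1 of this list, 1.57-fold lower, missed the threshold (adjusted p = 0.0772) but passed as lower without week 2 (adjusted p = 0.00345) and when arrays were centred on the median of the probe sets tested (adjusted p = 0.0398), and 1 of its 2 probe sets was called lower. The portal fibroblast markers had a sum of 3827 to 5397 in Pemt-/- liver and 2671 to 4164 in Pemt+/+ liver. Of the 7 markers of vascular smooth muscle, which carries the same contractile genes, only Actg2 and Smtn were bright enough to be tested. Smtn was 1.74-fold higher (adjusted p = 0.0456), a call lost without any 1 of the 4 weeks (adjusted p between 0.0549 and 0.188). The sum of the 7 was 251 to 454 in Pemt-/- liver and 182 to 416 in Pemt+/+ liver, so the ranges overlapped. None of 7 mesothelial markers passed, with a sum of 658 to 776 in Pemt-/- liver and 587 to 814 in Pemt+/+ liver. Of 8 endothelial markers, 2 were lower (Kdr and Clec4g, neither of them when week 3 or week 4 was left out), and the sum was 4492 to 9323 in Pemt-/- liver and 6824 to 9436 in Pemt+/+ liver. The part of these cells in the values of the 9 stellate cell genes was not tested.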

How the data were processed

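The authors deposited intensities of probe sets in linear units, scaled so that every array had a trimmed mean of 500.0 (without the top and bottom 2%). According to the submitters' processing notes they used Affymetrix Expression Console. The sources used here do not give its version or how probes were summarised. After 64 control probe sets were left out, 45037 remained, of which 34945 were paired with 1 gene, 932 with several and 9160 with none in the table used here. Symbols were updated through Entrez identifiers to the RefSeq table of GRCm38.p6.

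Values were taken as log2(intensity + 16), and fold changes are on that scale, which understates the change of dim probe sets. The ratios within a week are of the intensities without the added 16. Probe sets with a mean above the 40th percentile, an intensity of 45.5, were tested (27022). For the genotype, limma 3.58.1 (R 4.3.3) was used with the week as a block and an intensity trend in eBayes, because the genotypes were compared within each week. The test was two-sided, adjusted by the Benjamini-Hochberg method over all probe sets tested, at 0.05. The change per week was fitted within each genotype.

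All 9 genes were named with all probe sets, and of each list its counts and up to 4 genes of smallest p. Pdgfb, Gfap, Fn1, Srf, Lrp8, Lox, Gas1, the other actins and the dim smooth muscle genes were named after their values were seen. Members and lists were chosen with earlier results of these data known. Tested on simulated data of this size for the genotype difference, 31% of 100 probe sets changed by 1 log2 unit and 76% of 100 changed by 2 were recovered among 27022. In the fit of weekly change, 7% of changes of 0.6 and 44% of changes of 1.2 log2 units per week were recovered. Alternatives were other filters, scalings, added constants and variance priors, no block, and each week left out. The number of arrays limits the precision.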

Additional observations from a re-analysis of the deposited data

Results flagged for a closer look

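Of 22 sets of 4 arrays checked (the 11 probe sets in each genotype, log2 values), 1 had an array far from the others. In Pemt+/+ liver, Reln 1449465_at was lowest at week 2, with 2423 against 2668 to 2721 in the other weeks. The gap to the nearest array was 0.831 of the whole range, just above Dixon's critical value at the 95% level. Chance flags about 1 in 20 such sets. The whole range of the 4 Pemt+/+ arrays was a ratio of 1.12, and every Pemt-/- array was at 4895 or more.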

How the results depend on the processing

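The number of probe sets called for the genotype was 4372. It was 2348 with eBayes without an intensity trend, and 1818 to 4793 with 1 week left out. With no replicate block it was 4619, and the count of members called was again 9. The labels give the arrays of a week only a diet time in common and name no batch. Their deviations from the genotype means correlated at 0.10, -0.02, -0.03 and 0.11 in weeks 1 to 4. The members called were 7 to 10 over the settings that left out a week, and 7 without the trend, where Acta2 (adjusted p = 0.0682) and Pdgfrb 1417148_at (adjusted p = 0.0595) were lost. Of 162 values of single members under the alternatives, 149 kept their direction and side of the threshold, 8 lost the call, 4 gained it (all Myl9) and 1 turned. That was Ecm1, which lay between -0.22 and 0.0446 with 1 week left out, the highest being without week 3. For the difference in change per week, never called in any setting, 3 of 141 turned: with 1 week left out, Myl9 lay between -0.11 and 0.0675 and Des between -0.16 and 0.84, both turning without week 1, and Lrat 1421345_at between -0.18 and 0.10, turning without week 4. The ratio of 2 or more at week 1 was met by 7 of the 17 member probe sets, and by 5 with 16 added to the intensities. It was met by 4 with 64 added, and by 4 under quantile normalization or median centring. The part of the scaling in that fall was not separated from the part of the added constant. At week 2 the ratio was met by 8, by 6 with 16 added and by 5 with 64 added. Centring on the median of the probe sets tested moved the median difference of all probe sets tested to -0.14. With 1 array per genotype and week, a week and an array cannot be told apart.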

Other observations

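By Pearson's r over the 8 arrays among 12940 genes, the profiles most like that of Acta2 were Apobec3 (0.975), Nudcd2 (0.969), Dcakd (0.964), Atpif1 (0.961) and Col16a1 (0.960), a fibril-associated collagen. The profiles most like that of Lrat 1444487_at were Kif21a (0.995), Fbxo5 (0.988), Snrpg (0.975), 1700061I17Rik (0.974) and Brca1 (0.972). Fbxo5, an inhibitor of the anaphase-promoting complex, and Brca1, a DNA repair gene, are genes of dividing cells. These values hold the gap between the genotypes, rest on 8 arrays, and are a description only.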
